A study of Rattus norvegicus with 8 samples.

Results

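Transcripts of 7 genes of oxygen sensing and the hypoxia response, Epas1, Hif1a, Vegfa, Egln1, Egln3, Slc2a1 and Adm, were followed in 2 vessels of newborn rats, the ductus arteriosus (DA) and the aorta. They were taken by symbol from the 14506 genes that carry a single symbol in the platform annotation. The probe set with the highest mean was used for each gene, and all 7 genes were found, 6 of them with 1 probe set and Egln1 with 2. The DA is the fetal vessel that carries blood past the lungs, from the pulmonary artery to the aorta, and that closes once breathing starts. The 4 groups were DA of Brown-Norway rats (BN DA), aorta of Brown-Norway rats (BN aorta), DA of Fischer344 rats (F344 DA) and aorta of Fischer344 rats (F344 aorta). All were full-term pups taken 1 h after birth, each group had 2 Affymetrix Rat Gene 1.0 ST arrays, and no group received a treatment in the labels. Brown-Norway rats are known as a strain prone to persistent patency of the ductus. RNA was extracted from pooled tissues, and the labels do not say whether replicates came from separate litters, so the p-values speak only of the spread among the arrays at hand, which may be technical.

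Cells adjust to oxygen through the hypoxia-inducible factors (HIFs). HIF-1alpha (Hif1a) and HIF-2alpha (Epas1) are made continuously, but when oxygen is present the prolyl hydroxylases PHD2 (Egln1) and PHD3 (Egln3) mark them for binding by the von Hippel-Lindau protein (Vhl) and for destruction. When oxygen is scarce the alpha subunits persist, pair with ARNT and activate genes such as Vegfa (a growth factor of endothelial cells), Adm (adrenomedullin, a peptide that relaxes vessels), Slc2a1 (the glucose transporter GLUT1) and Egln3 itself. This control acts on protein, which arrays do not measure. The rise of oxygen tension at birth is the known trigger of ductal constriction, and hypoxia of the ductal wall with VEGF production has been described as part of its later remodelling.

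HIF binds DNA at a short core, written ACGTG or GCGTG. To show where these letters stand, promoter windows of RefSeq (build GRCr8, from 250 bases before to 50 bases after the start of the gene) were searched on both strands. A window was given for all 7 genes. Hif1a, Egln1 and Slc2a1 held at least 1 match, as did 41.6% of the 33469 windows of this length. The windows of Hif1a (chr6:98359648-98359947, plus strand, 3 matches), Vegfa (chr9:22452604-22452903, plus strand, 0 matches in the first of its windows in the table) and Slc2a1 (chr5:138002272-138002571, plus strand, 4 matches) are given because Hif1a and Vegfa passed the test between the strains in DA, while Slc2a1 passed the test in no comparison. Capitals mark the matches.
Hif1a: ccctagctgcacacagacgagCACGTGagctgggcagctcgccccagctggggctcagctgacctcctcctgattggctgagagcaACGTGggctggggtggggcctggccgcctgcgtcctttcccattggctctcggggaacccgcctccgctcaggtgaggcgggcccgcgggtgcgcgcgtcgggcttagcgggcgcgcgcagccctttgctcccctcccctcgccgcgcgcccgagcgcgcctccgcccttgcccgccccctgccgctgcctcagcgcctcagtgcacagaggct
Vegfa: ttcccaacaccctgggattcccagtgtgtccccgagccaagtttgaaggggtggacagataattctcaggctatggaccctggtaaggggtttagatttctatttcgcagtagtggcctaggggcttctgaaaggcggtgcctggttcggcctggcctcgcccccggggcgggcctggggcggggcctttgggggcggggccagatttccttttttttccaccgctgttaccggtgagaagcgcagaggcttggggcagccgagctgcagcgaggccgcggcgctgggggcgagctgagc
Slc2a1: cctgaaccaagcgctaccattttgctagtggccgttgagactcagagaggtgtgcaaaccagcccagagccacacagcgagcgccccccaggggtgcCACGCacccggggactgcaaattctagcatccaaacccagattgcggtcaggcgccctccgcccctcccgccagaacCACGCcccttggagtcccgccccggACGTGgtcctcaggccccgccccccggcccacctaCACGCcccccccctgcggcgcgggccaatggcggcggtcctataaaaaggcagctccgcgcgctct
In the Hif1a window 2 of the 3 matches overlap and together read CACGTG, starting at -229 from the gene's start. The Slc2a1 matches start at -153, -76, -51 and -16. A match is a description of letters, and a window without one says nothing about binding elsewhere.

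A ductal marker separated the vessels as labelled, and other markers were uneven between arrays. No marker was used to check the strain labels or the aorta on its own. Acta2 (smooth muscle actin) lay between 13.64 and 13.82 on the log2 scale on all 8 arrays, and the ductal transcription factor gene Tfap2b at 9.25 to 9.92 in DA, against 5.51 to 6.75 in aorta. Averaged over the 8 erythroid markers tested, the level was 8.61 and 7.55 in BN DA, 8.15 and 7.50 in BN aorta, 8.25 and 7.44 in F344 DA, and 7.75 and 7.17 in F344 aorta, so replicate 1 was higher in each group. The 10 thymocyte and lymphocyte markers averaged 7.05 on BN DA replicate 1, against 5.91 to 6.01 on the other 7 arrays. The BN DA replicates differed more than others (SD of the replicate difference over genes 0.349, against 0.196 to 0.258). Many dim genes were higher in F344 DA: with all genes split into 4 equal bins by mean level, the median difference from F344 aorta was 0.29 in the dimmest bin and -0.16 in the brightest. All 7 genes described here lie in the upper 2 bins, where the median differences were -0.19 and -0.16. Centring each array on its brighter genes therefore moved the median of all genes in F344 from -0.04 to 0.17, and that of BN DA minus F344 DA from -0.003 to -0.15.

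Vegfa and Hif1a rose in BN DA relative to F344 DA, Adm rose and Epas1 fell in F344 DA relative to F344 aorta, and Slc2a1 passed in no comparison. A gene was called when its Benjamini-Hochberg adjusted p in limma, over all 14506 genes, was under 0.05. In BN DA against F344 DA 2 of the 7 genes were called, both higher, where 4.53% of all genes were called (2.43% higher, 2.10% lower). In F344 DA against F344 aorta 2 of 7 were called, 1 in each direction, where 14.0% of all genes were called (8.87% higher, 5.12% lower). In BN DA against BN aorta limma called 0 of 7 (1.81% of all genes), and in BN aorta against F344 aorta 0 of 7 (0.159%, with 0.0827% higher and 0.0758% lower). The unadjusted limma p was under 0.05 for 2 of 7 genes (Egln1 and Egln3) in the first, and for 2026 of all 14506 genes. In the second it was under 0.05 for 1 of 7 (Vegfa), and for 757 of all 14506 genes. Averaged over strains, DA against aorta gave 3 calls, Egln3 higher and Epas1 and Egln1 lower, where 16.6% of all genes were called (10.1% higher, 6.47% lower). Averaged over tissues, BN against F344 gave 1 call, Vegfa, where 2.65% were called.

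**Figure D1:**
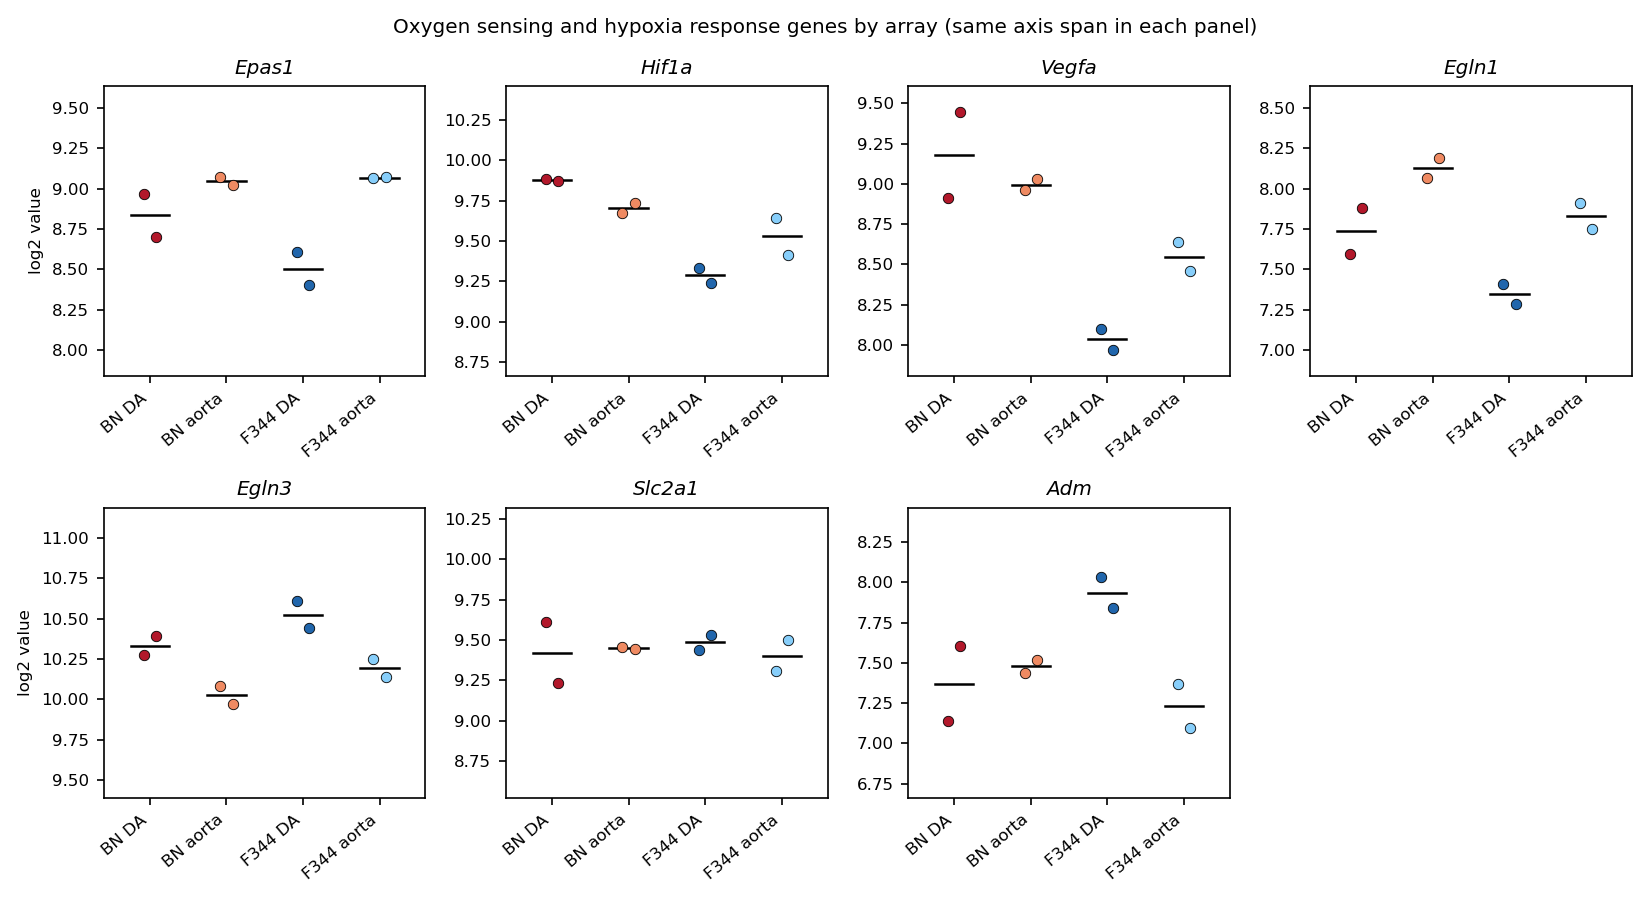
Log2 value of each of the 7 genes on each array (points) in BN DA, BN aorta, F344 DA and F344 aorta, with group means (lines) and a y axis of the same span in each panel. F344 DA arrays are the lowest for Hif1a, Vegfa, Egln1 and Epas1 and the highest for Egln3 and Adm, while Slc2a1 overlaps across all groups.

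Hif1a, the more widely expressed alpha subunit, was measured at 9.88 and 9.87 in BN DA, 9.68 and 9.74 in BN aorta, 9.33 and 9.24 in F344 DA, and 9.65 and 9.42 in F344 aorta. The BN DA arrays were the highest and the F344 DA arrays the lowest, with no overlap. Means were 9.88 ± 0.01 in BN DA and 9.29 ± 0.06 in F344 DA (SD, n = 2), a 1.5-fold difference (log2 difference 0.59 ± 0.13 SE, limma adjusted p = 0.0347). The call was lost when any array other than BN DA replicate 2 was left out (differences 0.54 to 0.63, adjusted p 0.0544 to 0.22), in the fit of the 4 DA arrays (0.102), when every probe set was tested (0.0639), and after the 3 rescalings (0.44 to 0.47, adjusted p 0.0661 to 0.0989). In the aorta the strain difference was 0.18 ± 0.13 SE and did not pass. Within strains the order of the vessels was opposite: DA lay above aorta in BN (0.17 ± 0.13 SE) and below it in F344 (-0.24 ± 0.13 SE), without overlap of arrays in either. Neither difference passed, and the test of the interaction gave 0.41 ± 0.18 SE (limma adjusted p = 0.498). Over the 9 settings other than leaving out an array, the F344 difference ran from -0.24 to -0.03. The interaction ran from 0.25 to 0.41 in such settings. Genes of the brightest bin, which holds Hif1a, had a median difference of -0.16 in F344, with quartiles of -0.29 and -0.03. The average over tissues, 0.38 ± 0.09 SE, did not pass (adjusted p = 0.0572), and passed with the mean-variance trend and without dim genes (0.0462 and 0.0385). It passed in 3 of the 8 settings other than leaving out an array (0.32 to 0.38, limma adjusted p up to 0.1345). Without 1 array it ran from 0.32 to 0.44.

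Epas1, the alpha subunit known for its expression in endothelium and in oxygen-sensing cells, was lower on every DA array than on every aorta array. Its values were 8.97 and 8.70 in BN DA, 9.07 and 9.02 in BN aorta, 8.61 and 8.40 in F344 DA, and 9.07 and 9.07 in F344 aorta. The 4 aorta arrays lay between 9.02 and 9.07 and the 4 DA arrays between 8.40 and 8.97. Epas1 fell in F344 DA to 8.50 ± 0.15, against 9.07 ± 0.00 in F344 aorta (SD, n = 2; log2 difference -0.57 ± 0.14 SE, 1.48-fold lower, limma adjusted p = 0.0246). In BN the difference was -0.22 ± 0.14 SE and did not pass, and the average over strains was -0.39 ± 0.10 SE (limma adjusted p = 0.0239). Leaving out any of the 4 F344 arrays ended the F344 call (-0.67 to -0.46, adjusted p 0.0561 to 0.187). After rescaling the difference was -0.39 to -0.36 (adjusted p 0.0736 to 0.0915), and the averaged call was lost too (-0.29 to -0.26, adjusted p 0.0556 to 0.0832), as it was without either aorta array of either strain or F344 DA replicate 2 (-0.40 to -0.34, adjusted p 0.05 to 0.102).

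Endothelial markers were lower in F344 DA than in F344 aorta, as Epas1 was, and were split in BN. Of 13 tested markers 6 fell and 0 rose in F344, where 5.12% of all genes fell and 8.87% rose. The differences were negative for 12 and positive for 1 (median -0.44). The largest were those of Sox17, a transcription factor of arterial endothelium, at -1.08 ± 0.13 SE and the junction gene Cldn5 at -0.93 ± 0.20 SE. Eng, Robo4 and Emcn were at 0.02, -0.003 and -0.04. The mean of the list was 8.51 and 8.44 in F344 DA, against 8.99 and 8.87 in F344 aorta. In BN the mean of the list was 8.93 and 8.76 in DA, against 8.81 and 8.88 in aorta. There 0 of 13 were called, with 6 positive and 7 negative differences (median -0.04). The defining endothelial marker Pecam1 was at 10.14 and 10.08 in F344 DA, against 10.52 and 10.58 in F344 aorta, without overlap (-0.44 ± 0.19 SE, limma adjusted p = 0.152), and at 10.82 and 10.18 in BN DA, against 10.44 and 10.37 in BN aorta. Their part in the Epas1 difference was not tested. In these bulk samples fewer cells of a type and less RNA per cell cannot be told apart.

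The prolyl hydroxylase genes were ordered in opposite ways. Egln1 (PHD2, the main hydroxylase of HIF-1alpha) was at 7.59 and 7.88 in BN DA, 8.07 and 8.19 in BN aorta, 7.41 and 7.28 in F344 DA, and 7.91 and 7.75 in F344 aorta. Egln3 (PHD3, itself induced by HIF) was at 10.27 and 10.39 in BN DA, 10.08 and 9.97 in BN aorta, 10.61 and 10.44 in F344 DA, and 10.25 and 10.14 in F344 aorta. By group mean, Egln1 ran BN aorta, F344 aorta, BN DA, F344 DA from high to low, and Egln3 ran through the same groups from low to high. The steps between strains in DA and in aorta, 0.39 and 0.30 for Egln1 and -0.19 and -0.17 for Egln3, did not pass. The step between BN DA and F344 aorta was not tested.

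Averaged over strains, Egln1 fell in DA by 0.44 ± 0.10 SE (1.36-fold, limma adjusted p = 0.0169) and Egln3 rose by 0.32 ± 0.09 SE (1.25-fold, limma adjusted p = 0.0394). Strain by strain, the Egln1 difference was -0.39 ± 0.14 SE in BN and -0.49 ± 0.14 SE in F344, and that of Egln3 was 0.31 ± 0.13 SE in BN and 0.33 ± 0.13 SE in F344. The interactions were 0.10 ± 0.20 SE for the brighter probe set of Egln1 and -0.02 ± 0.18 SE for Egln3 (limma adjusted p = 0.917 and 0.975), with 95% intervals of -0.35 to 0.55 and -0.43 to 0.38. The 2 Egln1 probe sets had the same direction, and the dimmer set differed more in F344 (-0.77 ± 0.17 SE, limma adjusted p = 0.0261 among all probe sets, against -0.49 ± 0.15 SE and 0.0795 for the brighter set). In BN the dimmer set was at -0.32 ± 0.17 SE, so its interaction was larger, 0.44 ± 0.23 SE (limma adjusted p = 0.643). Its strain difference in DA was 0.70 ± 0.17 SE (0.0747), against 0.39 ± 0.15 SE for the brighter set (0.194). The F344 difference of Egln1 lay at the threshold (limma adjusted p = 0.0506). It passed with the mean of both probe sets (-0.63, adjusted p = 0.0208), with the mean-variance trend (0.0426) and in the fit of the 4 F344 arrays (0.0212). Of the 9 settings other than leaving out an array, 4 called it. Over these 9 it ran from -0.63 to -0.28 (limma adjusted p up to 0.279), and without 1 array from -0.57 to -0.41.

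The Egln3 average was lost without any array other than BN DA replicate 1 (0.28 to 0.36, adjusted p 0.0715 to 0.151) and when every probe set was tested (adjusted p = 0.0639). The Egln1 average was lost without BN aorta replicate 2, F344 aorta replicate 1 or F344 DA replicate 2 (-0.41 to -0.40, adjusted p 0.0512 to 0.0814), after repeated quantile normalization (-0.35, adjusted p = 0.0715) and after centring on brighter genes (-0.31, adjusted p = 0.0996). In F344 alone Egln3 did not pass as deposited (limma adjusted p = 0.118). Of the 9 settings other than leaving out an array it passed in 3, the rescalings (0.44 to 0.54, adjusted p 0.0238 to 0.0461). Egln1 passed there without either BN DA array, at an unchanged difference of -0.49. Smooth muscle markers were also higher in DA: the mean of 10 was 11.76 and 11.50 in BN DA, against 11.42 and 11.17 in BN aorta, and 11.86 and 11.70 in F344 DA, against 11.34 and 11.26 in F344 aorta. In the average over strains 5 of 10 rose, where 10.1% of all genes rose. The part of these markers in the Egln1 and Egln3 differences was not tested.

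Vegfa, the growth factor target, had the widest range of the 7 genes, 1.48 log2 units over the arrays. It was at 8.91 and 9.44 in BN DA, 8.96 and 9.03 in BN aorta, 8.10 and 7.97 in F344 DA, and 8.64 and 8.46 in F344 aorta. All 4 BN arrays lay above all 4 F344 arrays. Vegfa rose to 9.18 ± 0.38 in BN DA, against 8.03 ± 0.09 in F344 DA (SD, n = 2; log2 difference 1.14 ± 0.18 SE, 2.21-fold higher, limma adjusted p = 0.015). In aorta the strain difference was 0.45 ± 0.18 SE (limma adjusted p = 0.845), and the average over tissues was 0.79 ± 0.12 SE (adjusted p = 0.0177).

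The order of the group means, BN DA, BN aorta, F344 aorta, F344 DA, was that of Hif1a. As with Hif1a, the vessels did not differ beyond the test within strains: the difference was 0.18 ± 0.18 SE in BN, with overlapping arrays, and -0.51 ± 0.18 SE in F344 (limma adjusted p = 0.738 and 0.0866). The interaction was 0.70 ± 0.25 SE (adjusted p = 0.437). The strain call in DA held after each rescaling (0.99 to 1.01) and was lost in the fit of the 4 DA arrays (adjusted p = 0.0528), without F344 DA replicate 1 (1.21, adjusted p = 0.0695) and without F344 DA replicate 2 (1.08, 0.14). The average was lost without any F344 array or either BN aorta array (0.75 to 0.84, adjusted p 0.0562 to 0.098). Thymocyte markers stood high on BN DA replicate 1, and without that array the strain difference in DA was 1.41 (adjusted p = 0.00127). Of 12 macrophage markers 10 were positive in BN DA against F344 DA (list means 7.26 and 7.54, against 7.13 and 7.01). Of these 1 was called, where 2.43% of all genes rose. In BN aorta against F344 aorta 11 of 12 were positive and 0 called, and the median difference was 0.38 in each vessel. The part of these markers in the Vegfa difference was not tested. In F344 the vessel difference of Vegfa passed without either BN DA array, at an unchanged -0.51. It also passed in the fit of the 4 F344 arrays (limma adjusted p = 0.0188), 1 of the 9 settings other than leaving out an array. Over these 9 it ran from -0.51 to -0.30 (adjusted p up to 0.366), and without 1 array from -0.60 to -0.42.

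Adm, the vasodilator target, was highest in F344 DA. Its values were 7.14 and 7.60 in BN DA, 7.44 and 7.52 in BN aorta, 8.03 and 7.84 in F344 DA, and 7.37 and 7.09 in F344 aorta. Both F344 DA arrays lay above all other arrays. Both BN aorta arrays lay above both F344 aorta arrays, and the BN DA arrays overlapped each of the aorta groups. Adm rose to 7.94 ± 0.14 in F344 DA, against 7.23 ± 0.19 in F344 aorta (SD, n = 2; log2 difference 0.70 ± 0.17 SE, 1.63-fold higher, limma adjusted p = 0.0275). In BN the difference was -0.11 ± 0.17 SE, and BN DA was 0.57 ± 0.17 below F344 DA on the log2 scale (difference -0.57, limma adjusted p = 0.0946). Without 1 array the strain difference in DA ran from -0.80 to -0.33, and passed only without BN DA replicate 2. The vessel average was 0.30 with all arrays (limma adjusted p = 0.14). Without 1 array it ran from 0.18 to 0.41, and passed only without BN DA replicate 1. Neither passed in the settings other than leaving out an array.

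Adm had the largest interaction of the 7 genes, -0.81 ± 0.25 SE (95% interval -1.37 to -0.26, limma adjusted p = 0.373), which did not pass. Its F344 call held in each of the 9 settings other than leaving out an array (0.70 to 0.91), and was lost without any of the 4 F344 arrays (0.57 to 0.84, adjusted p 0.0701 to 0.19). Adm is the dimmest of the genes, with a mean of 7.50, just above the border of 7.485 between the lower 2 and the upper 2 bins of mean level. Genes of the bin below had a median difference of 0.02 between F344 DA and F344 aorta, with quartiles of -0.17 and 0.21, and those of its own bin a median of -0.19.

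**Figure D2:**
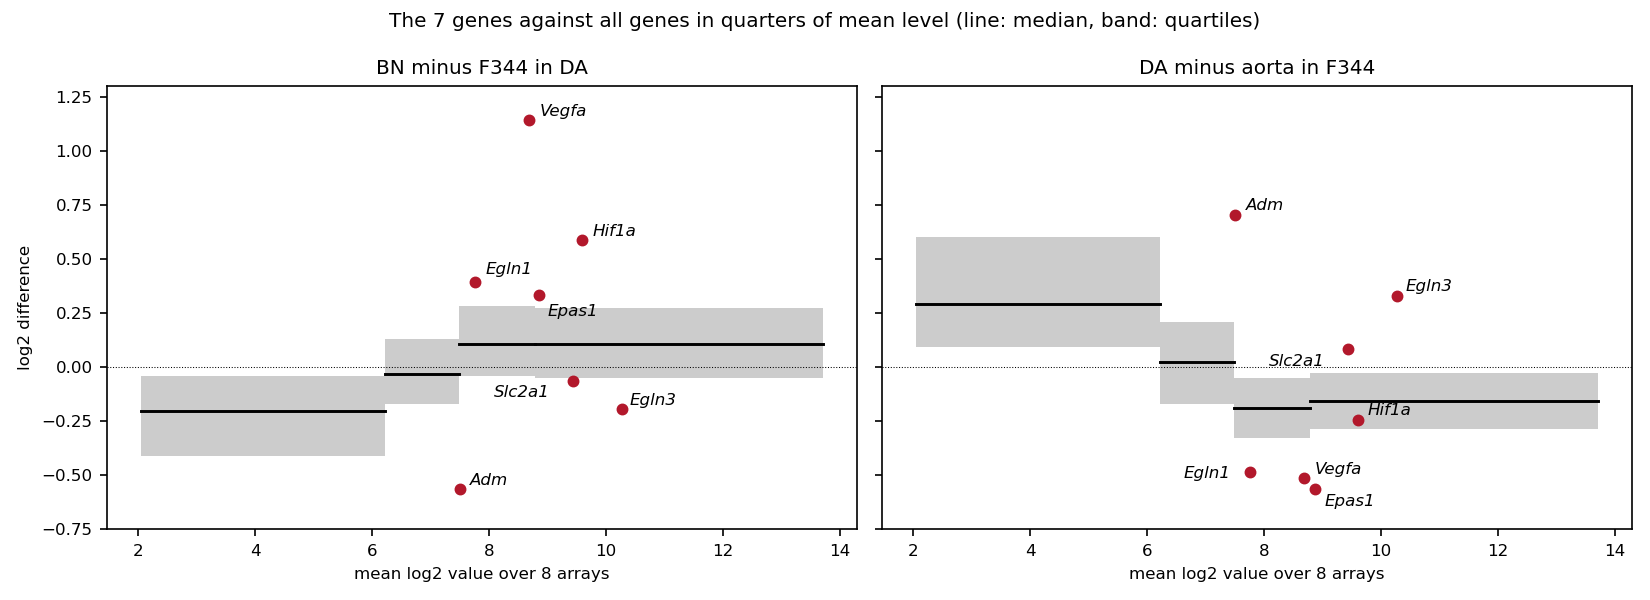
Log2 difference (y axis) against mean log2 value over the 8 arrays (x axis) for the 7 genes (points), with the median (line) and quartiles (band) of all genes in each of 4 bins of mean level, for BN DA minus F344 DA (left) and F344 DA minus F344 aorta (right). On the left Vegfa at 1.14, Hif1a, Egln1 and Epas1 lie above the band and Adm, Egln3 and Slc2a1 (-0.06) below it, and on the right Adm at 0.70, Egln3 and Slc2a1 lie above it, Epas1, Vegfa and Egln1 below it and Hif1a within it.

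Slc2a1, which encodes the basal glucose transporter of most tissues, passed the test in no comparison. It was at 9.61 and 9.24 in BN DA, 9.46 and 9.45 in BN aorta, 9.44 and 9.53 in F344 DA, and 9.31 and 9.50 in F344 aorta. The BN DA replicates alone spanned the full range of 0.37 log2 units, and the groups overlapped in every comparison. The strain difference in DA was -0.06 ± 0.15 SE (95% interval -0.40 to 0.27) and the vessel difference in F344 was 0.08 ± 0.15 SE (-0.25 to 0.42). These intervals leave room for differences of up to 0.42, so a missed threshold does not show equal levels. In BN DA and BN aorta the array with the higher Slc2a1 value was also the one with the higher erythroid marker mean, and in F344 DA and F344 aorta it was the one with the lower mean. Red cell precursors also make this transporter, and their part in its values was not tested.

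**Figure D3:**
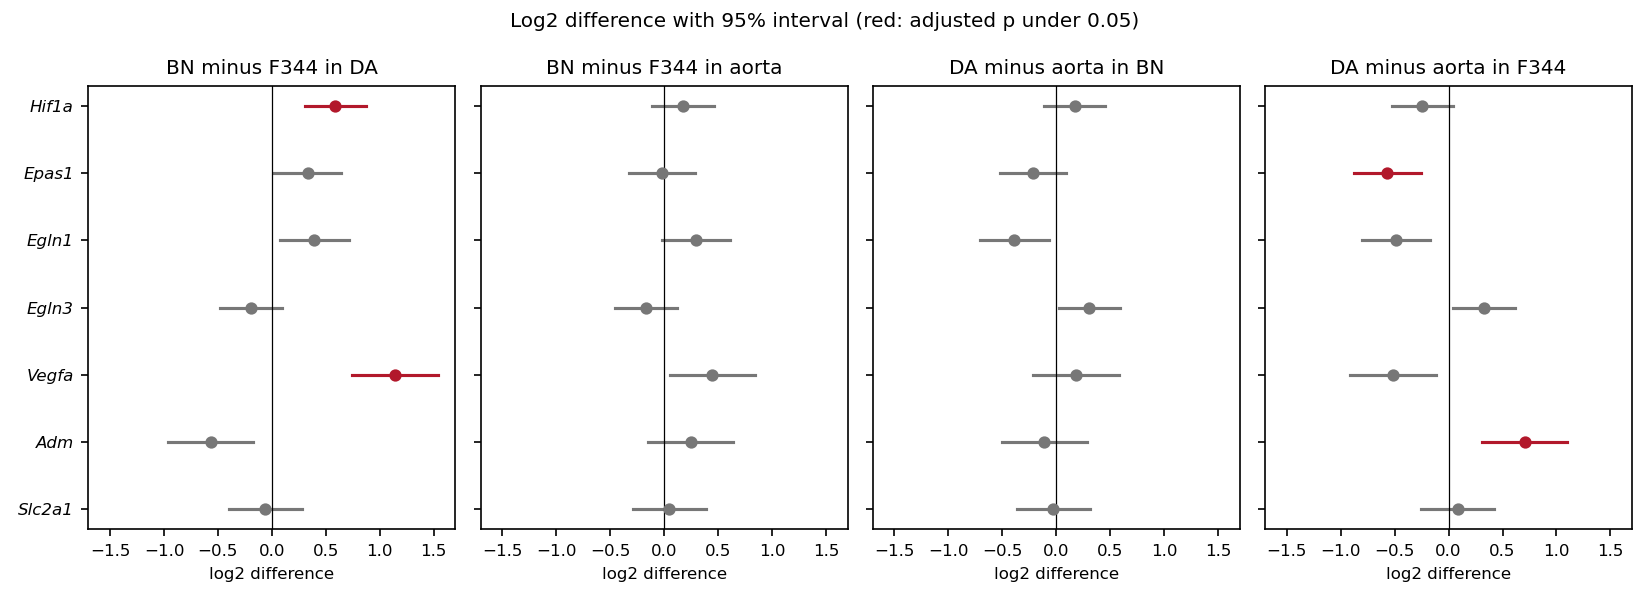
Log2 difference (points) with its 95% interval from limma (bars) for the 7 genes in BN minus F344 DA, BN minus F344 aorta, BN DA minus aorta and F344 DA minus aorta. Intervals in red belong to Hif1a and Vegfa (strain, DA) and to Epas1 and Adm (vessel, F344), the calls at an adjusted p under 0.05.

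The groups of the 7 genes often did not overlap, as was true of many genes. In BN DA against F344 DA 4 of 7 lay wholly above and 2 wholly below, where 25.9% of all genes lay above and 24.3% below. In F344 DA against F344 aorta 2 lay above and 4 below, where the shares of all genes were 29.6% and 37.8%. In BN DA against BN aorta 2 lay above and 2 below (18.7% and 18.5% of all genes), and in BN aorta against F344 aorta 4 lay above and 1 below (17.9% and 17.8%). The interaction called 0 of 14506 genes in limma, with 1403 at an unadjusted p under 0.05, among them Adm, Vegfa and Hif1a. Of the 7 genes, 4 had a positive interaction and 3 a negative one.

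The receptors of VEGF and adrenomedullin were examined beside their ligands. All 10 genes of the list of receptors and partners had a positive difference in BN DA against F344 DA, with a median of 0.52 (all genes -0.003), and 2 of them rose (2.43% of all genes). These were the VEGF receptor genes Flt1, by 0.65 ± 0.13 SE (limma adjusted p = 0.0288), and Flt4, the receptor of lymphatic growth factors, by 0.92 ± 0.18 SE (limma adjusted p = 0.0279). Flt1 was at 9.35 and 9.58 in BN DA, against 8.88 and 8.75 in F344 DA. It stood at 9.39 and 9.49 in BN aorta, against 9.00 and 8.94 in F344 aorta, so its 4 BN arrays, like those of Vegfa, lay above its 4 F344 arrays. Averaged over tissues Flt1 was called as well (0.56 ± 0.09 SE, adjusted p = 0.0207). Kdr, the main signalling receptor of VEGF, and the co-receptor gene Nrp2 had differences of 0.90 ± 0.24 SE and 0.82 ± 0.24 SE in DA and did not pass (limma adjusted p = 0.0663 and 0.0801).

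After centring on brighter genes the list median was 0.38, 9 of 10 differences were positive and 0 passed. Cyclic loess and repeated quantile normalization gave medians of 0.40 and 0.38, and 1 gene, Flt4, passed. Flt1 in DA was lost after those 3 rescalings, when every probe set was tested and in the fit of 4 arrays (adjusted p up to 0.0988), and without BN DA replicate 2 or any F344 array (up to 0.198). Its average was lost after centring on brighter genes and without any F344 array or either BN aorta array (up to 0.111). Flt4 was also lost when every probe set was tested, in the fit of 4 arrays (up to 0.0747) and without either F344 DA array (up to 0.143). Endothelial markers, 1 of which (Kdr) is in both lists, moved the same way: 11 of 13 were positive in BN DA against F344 DA, with a median of 0.39 and 1 call, Sox17, at 0.63 ± 0.13 SE. After centring on brighter genes 8 of 13 were positive, with a median of 0.25 and 0 calls. Their list mean was 8.93 and 8.76 in BN DA, against 8.51 and 8.44 in F344 DA, and their part in the receptor differences was not tested.

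Adrenomedullin signals through the receptor Calcrl with an accessory protein, Ramp2 or Ramp3, and Calcrl with Ramp1 binds the related peptide CGRP. Calcrl was at 10.33 and 9.39 in BN DA, 10.13 and 10.04 in BN aorta, 8.95 and 8.81 in F344 DA, and 10.36 and 10.17 in F344 aorta. It was lowest in F344 DA, the group in which Adm was highest. Calcrl fell in F344 DA against F344 aorta by 1.38 ± 0.25 SE (2.6-fold, limma adjusted p = 0.00754), and Ramp1 fell by 0.70 ± 0.13 SE (1.63-fold, adjusted p = 0.00877). Ramp2 had a difference of -0.46 ± 0.23 SE and Ramp3 of -0.12 ± 0.14 SE, and neither passed. In BN the Calcrl difference was -0.23 ± 0.25 SE, with the BN DA arrays wide apart, and its interaction of 1.15 ± 0.36 SE did not pass (adjusted p = 0.374). Both calls held in the 9 settings other than leaving out an array. Of the 10 listed genes 2 fell in F344, where 5.12% of all genes fell. A positive difference in F344 was seen for 1 of the 10, and for 5 after centring on brighter genes. Calcrl was lost without F344 DA replicate 2 or F344 aorta replicate 1 (adjusted p up to 0.0696), and Ramp1 without either F344 DA array or F344 aorta replicate 1 (up to 0.0916). The endothelial markers given above were also lower in F344 DA, and their part was not tested. Averaged over strains Calcrl fell by 0.80, a call lost in 3 of 8 fits without an array (adjusted p up to 0.0644), and Ramp1 by 0.42, lost in 3 of 8 such fits (up to 0.0784) and after centring on brighter genes (0.0611). In the same average the VEGF co-receptor gene Nrp1 fell by 0.48 ± 0.12 SE (adjusted p = 0.0233), which was lost after centring on brighter genes and repeated quantile normalization and in 4 of 8 fits without an array.

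**Figure D4:**
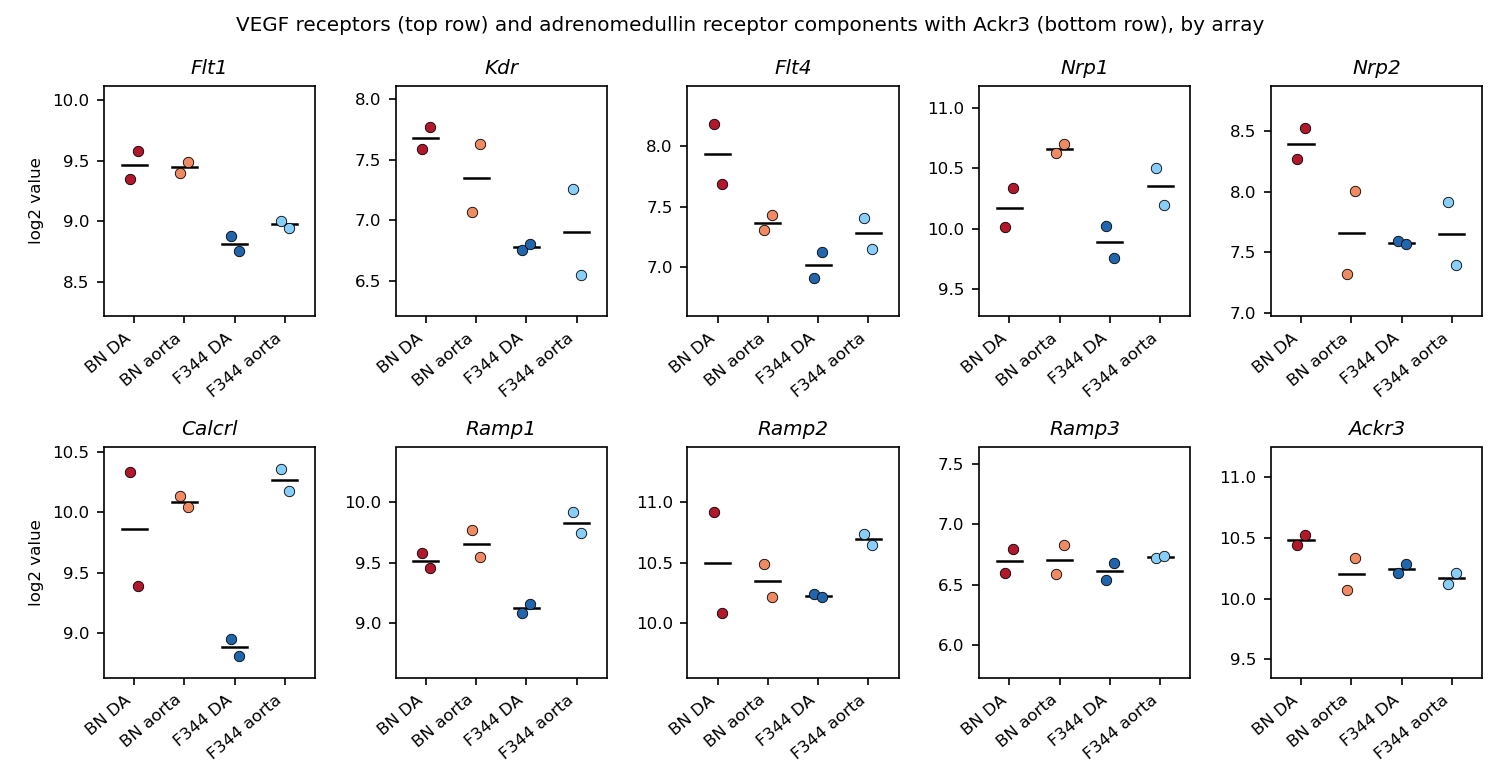
Log2 value on each array (points) and group mean (lines) of VEGF receptor genes (top) and of the adrenomedullin receptor components with Ackr3, a scavenger receptor (bottom), in BN DA, BN aorta, F344 DA and F344 aorta. Flt1 separates by strain, and Calcrl is lowest on the F344 DA arrays, at 8.95 and 8.81.

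The wider pathway was examined by list. The list of HIF subunits and oxygen-sensing enzymes held 14 genes beside Hif1a, Epas1, Egln1 and Egln3, and limma called 0 of them in any comparison within a strain or a vessel on the deposited scale. After rescaling some rose in F344 DA against F344 aorta: 3 of 14 after repeated quantile normalization, 1 after cyclic loess and 4 after centring on brighter genes. Of all 14506 genes 1523, 1446 and 2409 were called there, in either direction. Cited2, which encodes a competitor of HIF for its coactivators, passed after all 3 (0.58 to 0.66, adjusted p 0.0166 to 0.0383, against 0.45 and 0.106 as deposited). The others were Arnt2, Elob and Eloc, described next. Averaged over strains 3 of the 14 rose in DA as deposited, where 10.1% of all genes rose. They were the ARNT paralogue gene Arnt2 by 0.38 ± 0.10 SE and the elongin genes Elob by 0.39 ± 0.10 SE and Eloc by 0.29 ± 0.08 SE, whose products join the von Hippel-Lindau protein in its ubiquitin ligase (limma adjusted p 0.0349 to 0.0467). Each of the 3 was lost in 7 of the 8 fits without an array and when every probe set was tested (adjusted p up to 0.16), and Elob also with the mean of its probe sets (0.0998). Cited2 passed in this average after each rescaling (0.37 to 0.42, adjusted p 0.0218 to 0.0437). Arnt, Vhl and the asparaginyl hydroxylase gene Hif1an had differences of -0.11, -0.18 and -0.25 and did not pass.

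Of the 18 glycolysis genes beside Slc2a1, 1 fell and 0 rose in F344 DA, where 5.12% of all genes fell and 8.87% rose. The gene that fell was Hk2, an inducible hexokinase, at 6.86 and 6.92 in F344 DA, against 7.40 and 7.63 in F344 aorta (-0.63 ± 0.14 SE, limma adjusted p = 0.0181). In BN it was at 7.23 and 6.97 in DA, against 7.63 and 7.50 in aorta, so that all 4 DA arrays lay below all 4 aorta arrays, and the average of -0.55 ± 0.10 SE was called in 8 of 8 fits without an array and in 8 of 8 other settings. In F344 alone the Hk2 call was lost after centring on brighter genes (-0.42, adjusted p = 0.0711) and without any F344 array (up to 0.151). The median of the list, Slc2a1 included, was -0.03 in F344 (all genes -0.04), with 9 of 19 positive. It was 0.18, 0.15 and 0.18 after repeated quantile normalization, cyclic loess and centring on brighter genes (all genes -0.02, -0.01 and 0.17), with 15, 13 and 17 of 19 positive. Aldoc, an aldolase gene, passed in F344 after centring (0.77, adjusted p = 0.0409, against 0.56 and 0.152 as deposited), and in the average over strains after each rescaling (0.56 to 0.59, adjusted p 0.0294 to 0.0436), where Aldoa passed after centring (0.50, adjusted p = 0.0322). In the strain comparisons limma called 0 of 18. Ldha, Pgk1 and Pdk1, standard HIF-1 targets, had differences of 0.19, 0.08 and 0.36 in BN DA against F344 DA, and none passed.

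Among HIF targets of vessel tone and growth beside Vegfa and Adm, 1 of 17 rose in F344 DA, where 8.87% of all genes rose. The gene was Edn1, which encodes the constrictor endothelin-1. It was at 10.11 and 9.89 in F344 DA, against 9.23 and 9.35 in F344 aorta (0.71 ± 0.19 SE, limma adjusted p = 0.0383), and at 10.36 and 9.74 in BN DA, against 9.38 and 9.28 in BN aorta. The difference in BN, 0.72 ± 0.19 SE, was alike in size but did not pass alone (adjusted p = 0.11), and the average of 0.72 ± 0.14 SE (adjusted p = 0.00731) was called in all of the same fits and settings. Alone, the F344 call was lost without dim genes, when every probe set was tested, and without any F344 array or either BN aorta array (adjusted p up to 0.204). Cxcl12, a chemokine gene of the list, passed in F344 after centring on brighter genes (0.47, adjusted p = 0.0396, against 0.26 and 0.237 as deposited). Tfrc, the transferrin receptor gene, rose in the average over strains by 0.41 ± 0.12 SE (adjusted p = 0.0415). It was called in 1 of 8 fits without an array and in 4 of 7 other settings. The call was lost after repeated quantile normalization and cyclic loess and when every probe set was tested (0.26 at the smallest, adjusted p up to 0.253). Tfrc is dim, with group means of 6.81 in BN DA, 6.25 in BN aorta, 6.30 in F344 DA and 6.04 in F344 aorta. Erythroid precursors, whose markers varied as given above, also express Tfrc.

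Of 18 targets of stress, autophagy and chromatin, 1 rose in BN DA against F344 DA, where 2.43% of all genes rose. In F344 DA against F344 aorta 1 rose and 1 fell (8.87% and 5.12% of all genes). In BN DA against BN aorta 1 fell (0.820%), and averaged over strains 1 rose and 2 fell in DA (10.1% and 6.47%). Bnip3, a mitophagy gene, rose in BN DA against F344 DA by 0.73 ± 0.17 SE (10.26 and 10.22, against 9.67 and 9.35, limma adjusted p = 0.0431). That call was lost in 6 of 9 settings (adjusted p up to 0.089) and without BN DA replicate 1 or any F344 array (up to 0.273). P4ha2, a collagen prolyl hydroxylase gene, fell in DA in both strains, by 0.66 ± 0.13 SE in BN and 0.59 ± 0.13 SE in F344 (limma adjusted p = 0.0365 and 0.0149). Its values were 9.10 and 9.31 in BN DA, against 9.92 and 9.81 in BN aorta, and 9.08 and 9.00 in F344 DA, against 9.66 and 9.60 in F344 aorta. The average of -0.62 ± 0.09 SE was called in 8 of 8 fits without an array and in 8 of 8 other settings. In BN alone the call was lost in 7 of 8 fits without an array (adjusted p up to 0.256) and in 3 of 9 settings, and in F344 alone without any F344 array (up to 0.119) and after the 3 rescalings (-0.38 at the smallest, adjusted p up to 0.091). Plod2, a lysyl hydroxylase gene, fell in the average (-0.35 ± 0.09 SE, adjusted p = 0.0259), which was lost after centring on brighter genes (-0.22) and in 5 of 8 fits without an array. Higd1a, a mitochondrial survival gene, rose in F344 DA by 0.63 ± 0.17 SE (adjusted p = 0.0379) and in the average by 0.59 ± 0.12 SE (0.0105). The Higd1a call in F344 was lost after repeated quantile normalization and cyclic loess (0.48 and 0.51), when every probe set was tested and without any F344 array or either BN aorta array (adjusted p up to 0.251), and the average without F344 aorta replicate 1 (0.0526). The gene is dim, at 6.74 and 6.75 in F344 DA, against 5.98 and 6.24 in F344 aorta.

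Of 7 mitochondrial genes of the oxygen response, Cox4i2 was called in both kinds of comparison. It was the 1 gene of 7 that rose in BN DA against F344 DA, where 2.43% of all genes rose. It was also the 1 of 7 that fell in F344 DA against F344 aorta (5.12%). Averaged over strains 2 of 7 fell in DA (6.47%), and averaged over tissues 1 rose in BN (1.63%). Cox4i2 encodes the hypoxia-responsive isoform of cytochrome oxidase subunit 4 and is known for oxygen sensing in pulmonary arteries. Cox4i2 was at 8.80 and 8.73 in BN DA, 9.12 and 8.73 in BN aorta, 8.06 and 7.80 in F344 DA, and 8.58 and 8.67 in F344 aorta. The F344 DA arrays stood below all others, and the other groups lay close together. It rose in BN DA against F344 DA by 0.83 ± 0.16 SE (1.78-fold, limma adjusted p = 0.0259) and fell in F344 DA against F344 aorta by 0.70 ± 0.16 SE (1.62-fold, adjusted p = 0.0192), comparisons that share the F344 DA arrays. The interaction was 0.53 ± 0.22 SE and did not pass (adjusted p = 0.483). The strain call was lost in the fit of 4 arrays, when every probe set was tested and without any F344 array (adjusted p up to 0.193), and the vessel call after repeated quantile normalization (-0.49, adjusted p = 0.0526) and without F344 DA replicate 2 or either F344 aorta array (up to 0.155). Its partner isoform gene Cox4i1 had a strain difference of -0.40 ± 0.29 SE in DA and did not pass, with BN DA arrays at 10.57 and 9.49. Lonp1, which encodes a mitochondrial protease, fell in the average over strains by 0.38 ± 0.10 SE (adjusted p = 0.0258), as did Cox4i2 by 0.43 ± 0.11 SE (0.0293). Both were lost after each rescaling (-0.25 and -0.30 at the smallest), Cox4i2 also when every probe set was tested, Lonp1 in 5 and Cox4i2 in 4 of 8 fits without an array. Averaged over tissues Cox4i2 rose by 0.57 ± 0.11 SE in BN (adjusted p = 0.037), and was lost after centring on brighter genes and when every probe set was tested (adjusted p up to 0.0728) and in 5 of 8 fits without an array (up to 0.155).

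Finally, each of the 7 genes was set against the 7265 other named genes brighter than the median of all values, over the 8 arrays. The most alike profiles were Tm9sf1, Sgf29 and Mycbp2 for Epas1 (Pearson r = 0.99 each), Plk4 (0.992), Psme4 and Efl1 (0.98 each) for Hif1a, and Rcn2 (0.987), Vps41 and Slc9a9 (0.986 each) for Vegfa. For the hydroxylase genes they were Tfpi (0.988), Klhdc10 (0.982) and Azi2 (0.977) for Egln1, and Prss23 (0.981), Id2 (0.975) and Cplx2 (0.953) for Egln3. Csnk1a1 (0.976), Sem1 (0.96) and Stx16 (0.939) were nearest to Slc2a1, and Rnf145 (0.907), Or10ak14b (0.904) and Gzmb (0.893) to Adm. These values describe likeness on 8 arrays that fall into 4 groups and share their normalization, and the highest of 7265 coefficients is high by selection. Adm had the lowest of the 7 leading coefficients.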

How the data were processed

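Total RNA (150 ng) from pooled DA and aorta was hybridised to 8 arrays, 2 in each of 4 groups. The deposited values are log2 intensities on a scale read from their range (1.07 to 14.2). RMA is named per the submitters' processing notes, and its version is not given in the sources used here. Of 29215 probe sets, 15310 had 1 symbol in the platform annotation, 323 several and 13582 were not listed, and 15279 matched RefSeq by Entrez ID. The probe set with the highest mean was kept per gene (14506 genes).

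One limma 3.58.1 model (R 4.3.3) held all 4 groups, with 4 residual and 5.25 prior degrees of freedom, and its moderated test was adjusted by Benjamini-Hochberg over all genes. It was tested on simulated data. Array depth has no count, so the number of arrays limits precision. Alternatives were 3 rescalings (repeated quantile normalization, cyclic loess, centring on brighter genes), other probe-set rules, a filter on dim genes, a mean-variance trend, fits of the 4 arrays compared, replicate number as a block, and leaving out each array. Pathway genes were named where they were called or belong to a named receptor or target pair. Arnt, Vhl, Hif1an, Ldha, Pgk1, Pdk1 and Cox4i1, which were not called as deposited, were given beside them as further members of the lists. Cited2, Aldoc, Aldoa and Cxcl12, which passed after a rescaling and not as deposited, were named after their values were seen. The 7 genes, the 6 pathway lists (89 of 94 genes tested) and the 12 cell-type lists (116 of 128) were chosen with earlier results of these data known.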

Additional observations from a re-analysis of the deposited data

Results flagged for a closer look

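Hif1a stood out because both BN DA arrays lay above both BN aorta arrays, while both F344 DA arrays lay below both F344 aorta arrays. The interaction was 0.41 on the log2 scale (0.4132) and did not pass (limma adjusted p = 0.498). Over the settings other than leaving out an array it was 0.25 at the smallest, and the F344 vessel difference was as small as -0.03. Adm stood out because both BN DA arrays lay below both F344 DA arrays, while both BN aorta arrays lay above both F344 aorta arrays. Its interaction was -0.81 (-0.8148) and did not pass (limma adjusted p = 0.373).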

How the results depend on the processing

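With 2 arrays per group, most calls were lost in at least 1 fit without an array. Leaving out an array outside a comparison did not change the difference. Hif1a in BN DA against F344 DA stayed at 0.59 without any of the aorta arrays, while its call was lost. Such a fit changes only the shared estimate of the spread and its degrees of freedom. For arrays inside a comparison the difference could change too, and the 2 parts were not tested. Leaving out each array in turn gave 0 to 3 of the 7 genes called in BN DA against F344 DA, 0 to 4 in F344 DA against F344 aorta, 0 to 4 in the average over strains and 0 to 2 in the average over tissues. Counts over all genes then ran from 13 to 1233, 646 to 2850, 1361 to 3184 and 55 to 1015 in those comparisons, from 16 to 600 in BN DA against BN aorta, from 0 to 69 in BN aorta against F344 aorta and from 0 to 56 for the interaction. The fit of the 4 arrays compared called 0 of the 7 genes in BN DA against F344 DA and 4 in F344 DA against F344 aorta, with 118, 3363, 56 (strains in aorta) and 16 (vessels in BN) of all genes. In BN DA against F344 DA 1 of the 7 was called after repeated quantile normalization, cyclic loess and centring on brighter genes and when every probe set was tested, with 638, 495, 503 and 553 of all features, and in the average over strains 1 was called after centring on brighter genes and repeated quantile normalization, with 2491 and 1861 of all genes. In the average over tissues 2 were called with the mean-variance trend, without dim genes and with the replicate block. Over all genes these settings called 475 of 14506, 403 of 7779 and 966 of 14506. Without dim genes 788 genes were called in F344 DA against F344 aorta and 1081 in the average over strains. Testing every probe set called 88 in BN DA against BN aorta, and centring on brighter genes 215 in the average over tissues.

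Replicate numbers are shared by the groups, and deviations of same-numbered arrays correlated at 0.03 to 0.52 between groups, all 6 positive. The labels tie no number to a litter or batch, and with 2 numbers only, whether they pair the samples could not be told. With the number as a replicate block 1583 genes were called in BN DA against F344 DA, 548 in BN DA against BN aorta, 966 in the average over tissues and 2 for the interaction. The block turned 2 calls on the 7 genes, Hif1a averaged over tissues (adjusted p = 0.0347, against 0.0572 without it) and Egln1 in F344 (0.0408, against 0.0506).

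Differences near 0 changed sign. The Slc2a1 vessel difference in BN was 0.0204, 0.00223 and 0.0128 after centring on brighter genes, cyclic loess and repeated quantile normalization, the averaged Hif1a vessel difference 0.0926, 0.0515 and 0.0695, and the Egln1 interaction -0.0623 after centring. Leaving out arrays, Slc2a1 ranged from -0.25 to 0.12 (strains, DA), -0.0482 to 0.15 (strains, aorta), -0.22 to 0.16 (vessels, BN), -0.0144 to 0.18 (vessels, F344), -0.0665 to 0.12 and -0.10 to 0.0863 (averages over strains and over tissues) and -0.30 to 0.0738 (interaction). Vegfa and Adm ranged from -0.0844 to 0.45 and -0.34 to 0.12 (vessels, BN), Epas1 from -0.0444 to 0.0058 (strains, aorta), Hif1a from -0.0946 to 0.0207 (vessels, average), and the Egln1 and Egln3 interactions from -0.0486 to 0.24 and -0.11 to 0.0573.

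Scaling moved the split of calls over all genes. In F344 DA against F344 aorta 63.4% of calls were higher, against 87.5% after centring on brighter genes and 24.2% without dim genes. In BN DA against F344 DA the shares were 53.7%, 23.9% and 82.7%, in the average over strains 60.9%, 82.5% and 26.0%, and in the average over tissues 61.5%, 38.1% and 75.4%.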
